A study of Homo sapiens with 3 samples.

Results

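The genes of the leukaemia inhibitory factor (LIF) receptor, the Janus kinases (JAK) and STAT3, and the suppressors of cytokine signalling (SOCS) were examined in undifferentiated human embryonic stem (ES) cells. Members were all probes whose annotated gene symbol was LIF, LIFR, IL6ST, JAK1, JAK2, STAT3, SOCS1, SOCS2, SOCS3 or PTPN11. This gave 12 probes for 10 genes, out of 47293 probes in the deposited value table, of which 18468 carried a gene symbol. The samples were 3 human ES cell lines, H9, BG03 and ES01, with 1 Illumina bead array of total RNA for each line. All 3 lines were grown alike, on irradiated mouse embryonic fibroblasts with serum replacement and FGF2, and LIF is not among the medium components that the labels list. The study set human ES cells beside mouse ES cells and epiblast stem cells, and the mouse samples are not analysed here. The lines form 1 group without treatment, so an SD over them covers differences of line, culture and array at once.

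LIF binds a receptor made of LIFR and IL6ST (gp130). The receptor activates JAK kinases bound to its tails, which phosphorylate STAT3, and STAT3 then enters the nucleus and raises target genes. Among these targets are SOCS genes, whose proteins bind the receptor or the kinases and dampen the signal. PTPN11 encodes SHP2, a phosphatase that couples gp130 to the RAS-ERK branch. Mouse ES cells are maintained by LIF and STAT3, whereas human ES cells are commonly maintained with FGF2 and without LIF.

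A signal counted as above background when it passed the 95th percentile of 215 olfactory receptor probes on the same array, receptors that ES cells are not known for. After quantile normalization these thresholds were 11.2 units in H9, 12.6 in BG03 and 13.3 in ES01. The labelled cell type was checked against ES cell markers. Of 11 measured markers 10 were above background in every line, among them POU5F1, NANOG, LIN28A and DNMT3B, and SOX2, read by 1 probe, was above it in no line. Of 12 fibroblast markers, chosen because the feeder cells are fibroblasts, 5 were above background in every line, 5 in some lines and 2 (COL3A1 and POSTN) in no line. The summed intensity of the fibroblast marker probes was 1664 in H9, 1750.2 in BG03 and 2236 in ES01. Much of that sum came from the 2 THY1 probes, both nearly even (752, 851 and 824 units, and 354, 419 and 414 units). Which cells gave the THY1 signal was not tested, so the sum is not a measure of fibroblasts. Of the 10 fibroblast markers above background in some line 6 were at least 2-fold apart between lines, beside 8.77% of all genes above background in some line. The count depended on the background. It was 3 with the 99th percentile, and 7 with a second set of background probes described at the end. COL1A1 (18.6, 22 and 43.2 units), COL1A2 (310.3, 229 and 582 units), ACTA2 (108, 85.4 and 221 units) and TWIST1 (9.67, 24.5 and 45.4 units) were highest in ES01, LUM was above background in BG03 alone, and DCN was above it in H9 and ES01. PDGFRB was also highest in ES01, with a log2 difference of 0.96 from H9. PDGFRA (24.7, 16.9 and 6.37 units) and FAP (13.7, 11.3 and 9.9 units) were instead highest in H9. PDGFRA was above background in H9 and BG03, and FAP in H9 alone. Mouse feeder RNA in the extracts could reach these human probes, and its part in any value given here was not tested.

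The members were not all read alike. STAT3, JAK1, SOCS1, SOCS2 and PTPN11 were above background in all 3 lines. LIFR, IL6ST and SOCS3 were above it in none. LIF and JAK2 lay near the threshold, LIF above it in ES01 alone and JAK2 in BG03 and ES01. By probe, 6 of 12 member probes passed in all lines, beside 55.3% of named probes and 27.6% of all probes on the array, so the members as a list were read about as often as other named probes.

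**Figure D1:**
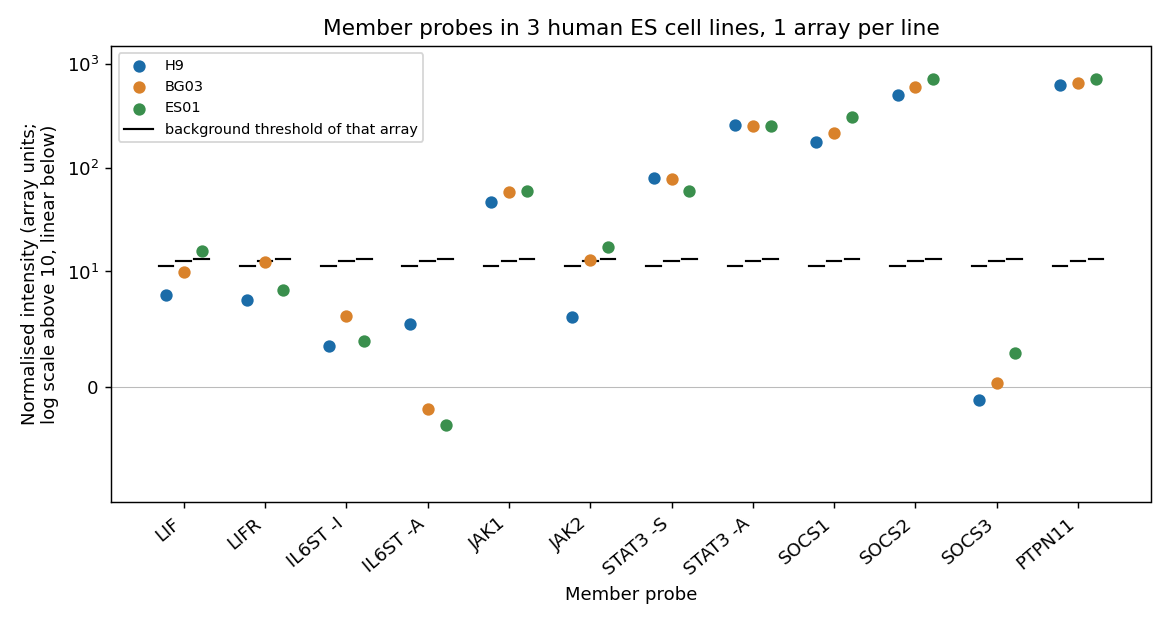
Normalised intensity of the 12 member probes (array units, log scale above 10 and linear below) in H9, BG03 and ES01, with a black bar at the background threshold of each array. LIFR, both IL6ST probes and SOCS3 sit under the bars in every line, and JAK1, both STAT3 probes, SOCS1, SOCS2 and PTPN11 sit above them in every line.

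A limma fit over all probes asked whether a probe stood above or below its arrays' thresholds over the 3 lines, on the log2(intensity + 50) scale. This offset shrinks the differences of dim probes. Over the array 54.5% of named probes and 26.7% of all probes were called above the threshold, and 34.7% of named and 62.6% of all probes below it, at a Benjamini-Hochberg adjusted p under 0.05. The same 6 member probes were called above background, 3 were called below it and 3 could not be told from it. The samples are separate lines, and with 3 of them the p-values measure only the spread between these arrays.

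The upstream regions of SOCS1, SOCS3 and LIFR are shown because SOCS1 was above background in every line and SOCS3, a related feedback inhibitor, in none, and because some of the LIFR upstream windows held a STAT-type motif. They are RefSeq sequences of build GRCh38.p14, the 250 bases before an annotated start, from the windows at chr16:11256205-11256454, chr17:78360926-78361175 and chr5:38595406-38595655, all on the minus strand. Capitals mark the STAT-type motif TTCNNNGAA, which reads the same on both strands.
SOCS1: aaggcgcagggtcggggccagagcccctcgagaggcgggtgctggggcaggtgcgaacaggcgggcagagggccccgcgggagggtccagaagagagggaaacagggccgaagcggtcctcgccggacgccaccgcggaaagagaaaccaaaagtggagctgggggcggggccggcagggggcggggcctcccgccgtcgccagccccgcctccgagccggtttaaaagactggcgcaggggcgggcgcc
SOCS3: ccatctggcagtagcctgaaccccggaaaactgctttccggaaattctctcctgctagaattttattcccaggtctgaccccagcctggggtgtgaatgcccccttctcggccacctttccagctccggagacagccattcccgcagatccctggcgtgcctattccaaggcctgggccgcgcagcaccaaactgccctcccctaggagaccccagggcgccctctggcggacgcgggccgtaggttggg
LIFR: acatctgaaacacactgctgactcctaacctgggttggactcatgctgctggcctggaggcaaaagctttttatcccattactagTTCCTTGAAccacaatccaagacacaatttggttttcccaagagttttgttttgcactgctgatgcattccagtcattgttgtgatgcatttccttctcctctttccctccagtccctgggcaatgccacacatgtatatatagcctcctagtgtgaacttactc

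Such windows were given by RefSeq for 7 of the 10 member genes, 15 in all, since LIFR, JAK1, JAK2 and SOCS3 have several annotated starts. The motif TTCNNNGAA was found in 2 of the 15, both of LIFR, and in 6.57% of 35116 windows of the same length from all genes. The LIFR window shown was picked for the motif, which begins there 165 bases before the start. A further LIFR window, at chr5:38556647-38556896, held no motif and had a GC content of 83.6%. The stricter form TTCCNGGAA occurred in 0.968% of all windows. Neither SOCS window shown held the motif, which says only that these letters are not in those bases. The GC content was 74.0% in the SOCS1 window, 62.8% in the SOCS3 window shown and 45.2% in the LIFR window shown. Over all windows the median was 58.0%. A further SOCS3 window, at chr17:78359668-78359917, held no motif and had a GC content of 71.6%.

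The ligand LIF measured 7.97 units in H9, 9.93 in BG03 and 15.8 in ES01. Only the ES01 value passed its threshold, and it did so by a factor of 1.19. Bead types of like brightness on the ES01 array had a median standard error of 2.91 units, which is more than the gap between LIF and the threshold. Taking the H9 threshold for the H9 value, LIF was at least 1.41-fold higher in ES01 than in H9 after quantile normalization, a log2 difference of 0.50 that was 0.17 with arrays scaled to the same median. Over the 3 lines LIF was not told from the threshold (limma, adjusted p = 0.599).

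Neither receptor subunit was above background in any line. LIFR, the LIF-specific subunit, measured 7.57 units in H9, 12.2 in BG03 and 8.43 in ES01. The BG03 value came closest to its threshold, at 0.972 of it, and the limma test did not separate LIFR from the thresholds (adjusted p = 0.177). IL6ST, the shared signal-transducing subunit, was read by a probe named for 1 isoform (suffix -I) and a probe named for all isoforms (suffix -A). The isoform probe gave 3.50, 6.17 and 4.0 units in H9, BG03 and ES01, and the other probe gave 5.43, -1.97 and -3.30 units. Both were called below the threshold (limma, adjusted p = 0.00165 and 4.1e-04), where most background probes also lie. These probes were not checked for reading their transcripts, so a low value does not show that a transcript is absent.

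The kinases differed from each other. JAK1, the main kinase of gp130, measured 46.9 units in H9, 59.1 in BG03 and 59.4 in ES01 (55.1 ± 7.11, SD, n = 3). Each value was between 4.19 and 4.70 times its array's threshold, and JAK1 was called above background (limma, adjusted p = 4.4e-06). H9 was lowest, 1.27-fold under ES01, a log2 difference of 0.34, with bead standard errors of 0.10 to 0.12 on each array. Here and below these errors cover beads of 1 array, not lines or cultures, and show no difference between lines. JAK2, which also binds gp130, measured 6.07 units in H9, 12.8 in BG03 and 17.4 in ES01. The BG03 value exceeded its threshold by a factor of only 1.01 and the ES01 value by 1.31, and over the lines JAK2 was not told from the threshold (limma, adjusted p = 0.858). Bead types of like brightness had a median standard error of 2.86 units on the BG03 array, more than the gap to the threshold. On the ES01 array it was 2.97 units, less than the gap. Against the H9 threshold, JAK2 was at least 1.55-fold higher in ES01 after quantile normalization, a bound that leaves out bead error. The log2 difference of 0.63 was 0.30 with arrays scaled to the same median.

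STAT3, the transcription factor of the pathway, was read by 2 probes that were both above background in every line and that did not show the same pattern. The probe with suffix -A gave 261, 255 and 254 units in H9, BG03 and ES01, a log2 SD of 0.02. The probe with suffix -S gave 79.6, 77.3 and 59.9 units, a log2 SD of 0.23. At the -S probe ES01 was lowest, 1.33-fold under H9 and 1.29-fold under BG03, whereas at the -A probe the largest difference between lines was 1.03-fold. The log2 difference between ES01 and H9 was -0.41 at the -S probe, with bead standard errors of 0.08 to 0.10 on each array, and those of the -A probe were 0.05. With arrays scaled to the same median the ES01 minus H9 difference was -0.33 at the -A probe and -0.72 at the -S probe, so the evenness of the -A probe depends on the scaling. By its suffix the -A probe is named for all isoforms, as for IL6ST. Which transcripts each STAT3 probe in fact reads is not given in the sources used here. Both were called above background (limma, adjusted p = 2.5e-06 for -S and 9.7e-09 for -A).

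The feedback inhibitors fell into 2 sorts. SOCS1, whose protein inhibits JAK kinases directly, measured 179 units in H9, 216 in BG03 and 312 in ES01 (235.6 ± 69.0, SD, n = 3). After quantile normalization it showed the widest spread among the members above background in all lines, with ES01 1.75-fold above H9 and 1.45-fold above BG03. With arrays scaled to the same median these log2 differences were 0.50 and 0.18, and the STAT3 -S probe had the widest spread. SOCS2, best known as an inhibitor of growth hormone signalling, measured 501, 596 and 722 units (607 ± 111, SD, n = 3), with ES01 1.44-fold above H9. The log2 differences between ES01 and H9 were 0.81 for SOCS1 and 0.53 for SOCS2, and the bead standard errors were 0.04 to 0.06 on each array. SOCS3, the classical STAT3-induced inhibitor of gp130, measured -1.17, 0.300 and 2.93 units and was called below the threshold (limma, adjusted p = 6.3e-05). SOCS1 and SOCS2 were called above it (adjusted p = 1.4e-07 and 1.8e-09).

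PTPN11 was close to even over the lines. It measured 637 units in H9, 653 in BG03 and 713 in ES01 (668 ± 40.2, SD, n = 3), a log2 SD of 0.09. The largest difference was 1.12-fold, higher in ES01 than in H9 but turned to -0.09 on the log2 scale with arrays scaled to the same median. The probe was called above background (limma, adjusted p = 4.4e-10).

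Since each line has 1 array, lines could not be tested against each other, and differences are given by size. No member probe was at least 2-fold apart between any pair of lines. Over named probes above background in 1 or both lines of a pair, 3.33% were at least 2-fold apart between BG03 and H9, 5.21% between ES01 and H9 and 3.86% between ES01 and BG03, so a count of 0 among so few members is near what other probes show. At 1.5-fold, 2 member probes were apart between ES01 and H9, SOCS1 and JAK2, the latter as a bound, beside 16.9% of named probes. With arrays scaled to the same median neither was (log2 difference 0.50 and 0.30), and the STAT3 -S probe was (-0.72). A limma variance test of each probe against probes of like intensity called 0 of 16583 probes, 0%, at an adjusted p under 0.05. It called 782 (4.72%) at an unadjusted p under 0.05, none of them a member. The reference spread was fitted to these same probes, so the share called over the array follows largely from the fit. The lowest unadjusted p among the members was 0.106, for SOCS1 (adjusted p = 0.971).

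**Figure D2:**
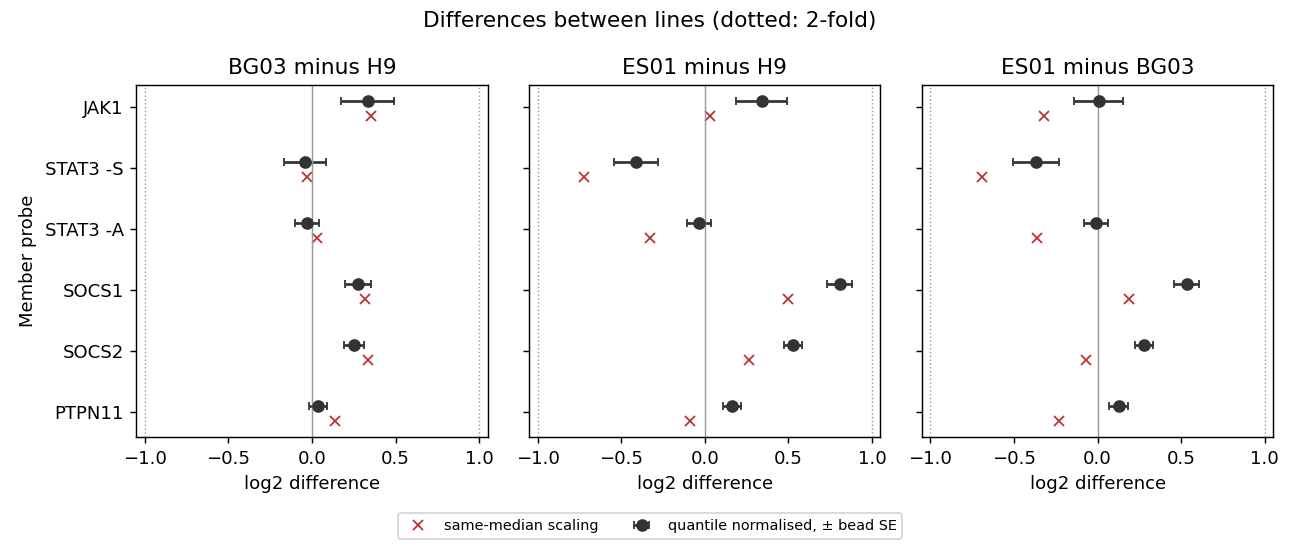
Log2 difference between each pair of lines for the 6 member probes above background in all lines. Black points are quantile-normalised values with the combined bead standard error of both arrays, which covers beads and not lines; red crosses are values after scaling the arrays to the same median; dotted lines mark 2-fold. The largest difference between ES01 and H9 is 0.81, for SOCS1, among the black points, and -0.72, for the STAT3 -S probe, among the red crosses.

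Spread was described beside that of other probes. The median log2 SD over the lines was 0.21 for the 6 member probes and 0.18 for 10217 named probes above background in all lines. For SOCS1 it was 0.41, beside a median of 0.18 over 825 named probes within 0.25 log2 units of its level. SOCS2 had 0.26 beside 0.14, and PTPN11 had 0.09 beside 0.14. JAK1 had 0.19 beside 0.27. The STAT3 -A probe had 0.02 beside 0.18, and the -S probe 0.23 beside 0.24. SOCS1 and SOCS2 therefore varied more than the middle probe of their level and the other 4 probes less, the STAT3 -S probe only slightly, with no test.

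JAK1, SOCS1, SOCS2 and PTPN11 were lowest in H9 and highest in ES01, 4 of the 6 probes above background in all lines, an order noticed after the values were seen. Of named probes above background in all lines, 19.7% had it. For JAK1 the log2 difference between ES01 and BG03 was only 0.006, with bead standard errors of 0.10 to 0.12 on each array. Its place in the order is therefore not settled. The order depended on how arrays were scaled. It held at 3 member probes, beside 19.9% of named probes, with arrays scaled to the same 75th percentile, and at 1, SOCS1, beside 4.8% of named probes, with arrays scaled to the same median. That scaling moves the median of all named probes above background by -0.29 between ES01 and H9. Under it the difference between ES01 and H9 was 0.50 for SOCS1 and 0.26 for SOCS2, it was 0.03 for JAK1, and it turned for PTPN11, as given above. The summed fibroblast markers were also highest in ES01, as given above. PDGFRA and FAP were lowest there, with ES01 values under the background threshold. The part of fibroblast markers in these differences was not tested.

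Other genes of the pathway were taken from 6 lists, with 60 of 69 listed genes measured. Of these, 36 passed the threshold in every line, 4 in some and 20 in none, beside 59.8% above background in all lines among all genes with a symbol. Among gp130 family ligands 1 of 7 was above background in every line, and among receptors of the family 1 of 9. These were the cytokine IL11 (39.5, 31.0 and 39.1 units in H9, BG03 and ES01) and the interleukin 27 receptor subunit IL27RA (53.4, 66.9 and 69.8 units). The interleukin 6 receptor IL6R and the oncostatin M receptor OSMR, like LIFR and IL6ST, were above background in no line.

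Of the listed genes that act inside the cell most were read, beside 59.8% above background in all lines among all genes with a symbol. The lists are short, and the share for other SOCS genes and inhibitors, 69.2%, is near that of all genes. Of other JAK and STAT genes 5 of 6 were above background in all lines, the exception being JAK3, a kinase of lymphoid cytokine receptors. TYK2, a JAK family kinase, measured 169, 139 and 101 units, STAT4 39.2, 45.5 and 46.6 units, and STAT5A 56.9, 44.7 and 31.6 units. For TYK2, STAT5A and STAT6 (56.5, 46.7 and 29.7 units) the lowest value was in ES01, 1.67-fold, 1.80-fold and 1.90-fold under H9. None of this list was at least 2-fold apart after quantile normalization, and 3 genes were with arrays scaled to the same median. Of other SOCS genes and inhibitors 9 of 13 were above background in all lines, including SOCS4 (33.5, 35.0 and 28.3 units), SOCS5 (475, 515 and 419 units at its brightest probe) and the STAT inhibitor PIAS1 (288, 251 and 231 units). Of adaptors that link SHP2 to RAS 5 of 6 were, among them GRB2 (609, 707 and 687 units), GAB1 (27.9, 33.1 and 26.6 units) and the RAS exchange factor SOS1 (23.4, 19.7 and 14.8 units).

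**Figure D3:**
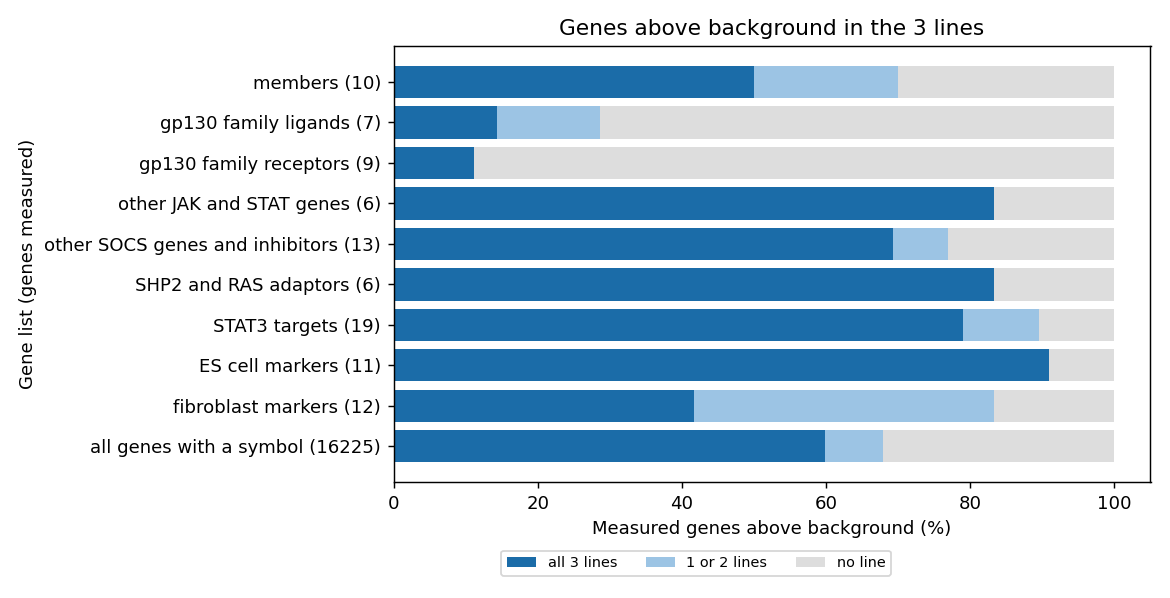
Share of measured genes (percent) that passed the background threshold on every array, on 1 or 2 arrays, or on none, for the members, each pathway list, both marker lists and all genes with a symbol, with the number of genes measured in brackets. Ligands and receptors of the gp130 family show the smallest shares in all lines, 14.3% and 11.1%, and other JAK and STAT genes and the adaptors each show 83.3%.

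Genes known as STAT3 targets were mostly read, 15 of 19 in all lines, beside 59.8% of all genes with a symbol. JUNB and VEGFA were above background in no line. Of the 17 above background in some line, 5 were at least 2-fold apart between a pair of lines, against 8.77% of all genes above background in some line. They did not move in 1 direction. PIM1, a survival kinase, measured 269, 358 and 560 units in H9, BG03 and ES01, 2.08-fold higher in ES01 than in H9. KLF5, a pluripotency factor that LIF maintains in mouse ES cells, was 3.25-fold higher in ES01 than in BG03. GBX2, a homeobox gene, was above background in ES01 alone (10.97, 8.83 and 33.9 units), at least 3.02-fold above H9. CEBPD, an acute-phase transcription factor, was lowest in H9 (74.5, 157 and 131 units), and BCL6, a transcriptional repressor, was highest there (148, 98.5 and 70.7 units). KLF4 (99.9, 98.9 and 181 units) and TFCP2L1 (31.4, 47.7 and 50.9 units), both factors of naive mouse ES cells, were highest in ES01 without reaching 2-fold, TFCP2L1 only just above BG03, and below it (log2 difference -0.24) with arrays scaled to the same median. With arrays scaled to the same median, PIM1 was no longer 2-fold apart (log2 difference 0.77) and IRF1 became so; the direction between ES01 and H9 was as given for PIM1, KLF4, KLF5, GBX2, CEBPD and BCL6. The count of targets at least 2-fold apart also moved with the background. With the 99th percentile GBX2 was not at least 2-fold apart and the count was 4. With the second set of background probes BCL3 joined and the count was 6.

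**Figure D4:**
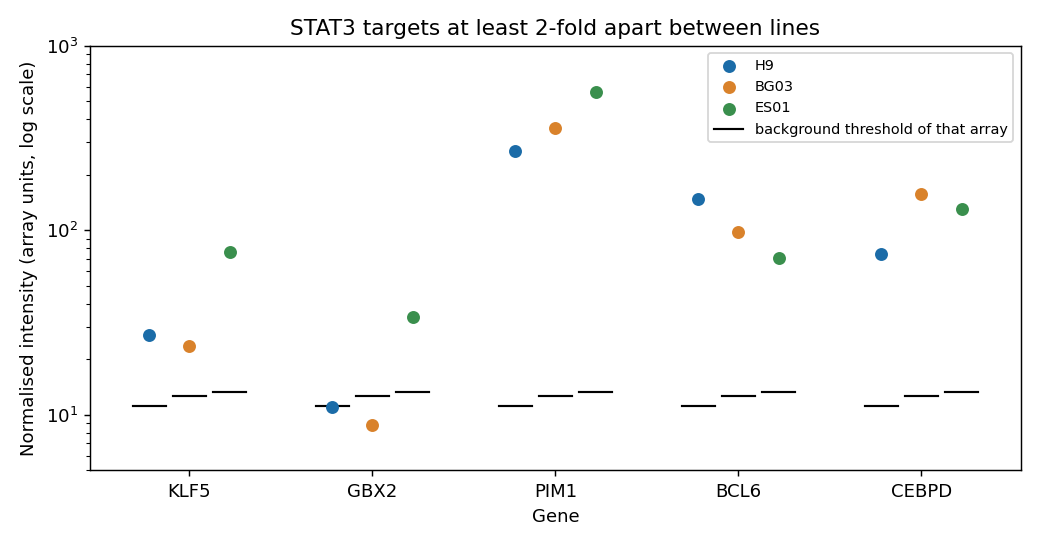
Normalised intensity (array units, log scale) of the 5 STAT3 target genes at least 2-fold apart between lines, with a black bar at the background threshold of each array. PIM1, KLF5 and GBX2 are highest in ES01, BCL6 is highest in H9 and CEBPD is highest in BG03.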

How the data were processed

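Total RNA of 3 human ES cell lines was labelled with Cy3 and hybridised to Illumina arrays, per the labels' protocols. The deposited table holds intensity values with background already subtracted by the authors, since 26.3% to 33.8% are below 0; how arrays were scaled, and with what software, is not given in the sources used here. Probes were named through the platform annotation, 18451 of 18468 named probes also by gene ID in RefSeq (GRCh38.p14).

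All probes except 4 bacterial controls went through quantile normalization (limma 3.58.1, R 4.3.3). Values under the threshold were set to it before log2. The detection and variance tests ran in limma over all probes with Benjamini-Hochberg adjustment, and both were tried on simulated data. The variance test was tried there only on planted differences far larger than any among the members. How often it would call differences of the members' size was not tested. Deposited bead files, 2089034 to 2102778 beads per array, name no genes. Standard errors come from the 500 bead types nearest in brightness rank to each probe, a median of 41 to 44 beads each, after beads over 3 median absolute deviations were left out, and were scaled to table units by factors of 0.873 to 0.974. The 1-array-per-line design limits precision.

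Members and lists were chosen with earlier results of these data known. Named genes were the members, genes of the 6 pathway lists at least 2-fold apart, and the first 3 measured genes of each such list above background in all lines; fibroblast markers, STAT6, JAK3, IL6R, OSMR, JUNB, VEGFA and IRF1 were added after their values were seen. No member met the rule for naming genes of like pattern, a 2-fold range. Alternatives covered normalization, background, offset, floor, fold threshold, variance prior and leaving out each line. Python 3.11.15 with pandas 2.3.3, numpy 2.4.6 and matplotlib 3.10.9 was used for beads, sequences and figures.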

Additional observations from a re-analysis of the deposited data

How the results depend on the processing

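Member probes past the limma detection test numbered 6 under every alternative run for that count, and 6 were above background in all lines under every normalization and background. Leaving out each line in turn gave 6 to 7 such probes, JAK2 joining without H9, and 36 to 37 pathway genes, against 36 with all lines and 34 with the 99th percentile background. That background left LIF and JAK2 above it in no line, and a second set of 89 taste receptor, keratin-associated and defensin probes put LIFR above it in 1 line. Member probes at least 2-fold apart stayed at 0 in each pair under the other normalizations, backgrounds and a floor of 50 units, and became 2 between ES01 and H9 at 1.5-fold, since the threshold itself is lower. The variance test called 0 members throughout. Over the array it called 485 probes without the filter on dim probes, where values set to a threshold vary little, and 93 with arrays scaled to the same median; the cause of the latter was not tested. Scaling to the same median was added after the data were seen. It took the member probes lowest in H9 and highest in ES01 from 4 to 1, and named probes with that order from 19.7% to 4.8%. The deposited medians it equalises, 3.5, 3.5 and 4.4 units, lie under the background thresholds. No direction of a member probe at least 2-fold apart could reverse, as there was none. Signals near background are limited by bead standard errors of 1.67 to 2.97 units for the probes not above it in every line.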
